A study of Arabidopsis thaliana with 16 samples.

Results

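Zeocin, a bleomycin-type antibiotic that cleaves both strands of DNA, was applied to whole Arabidopsis thaliana seedlings of the Columbia (Col-0) line, and RNA was sequenced from 5 libraries of treated and 5 libraries of mock seedlings. All seedlings were 15 days old and grown in vitro, and the treated ones received 200 µg/ml zeocin for 3 h. The sources used here do not say what the mock seedlings received, how many seedlings made up a library or whether libraries came from separate cultures, so p-values measure the spread between these libraries, which may be technical. The series has 16 libraries in all and looks for long non-coding RNAs with a role in break repair. The comparison was made over all 20880 loci that the authors assembled from these reads, which is the whole of their zeocin count table, and 19447 of them had enough counts to be tested. Of the 20880 loci, 19637 held exactly 1 annotated gene on their own strand.

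In plants a double-strand break is sensed mainly by the kinase ATM, which phosphorylates the transcription factor SOG1. SOG1 has the place that p53 has in animals: it turns on genes that halt the cell cycle and repair DNA, and it is known to bind a palindromic sequence in which the letters CTT and AAG are 7 bases apart. Repair by homologous recombination copies the broken stretch from a sister chromatid, whereas dividing root cells can also be led into endoreduplication or death.

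Values written as log2 with ± are log2 fold changes of zeocin over mock with their standard error. Levels are not corrected for gene length and are compared between libraries, not between genes.

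Total counts lay between 31185080 and 44536500 per library. A plot of the first principal components put the groups apart on the first, with 57.2% of the variance, and mock library 1, zeocin library 1 and zeocin library 4 apart from the rest on the second, with 13.3%. The same 3 libraries held the most transcripts of the seed storage gene CRA1, at 4.42, 13.1 and 6.21 CPM (counts scaled to library size with edgeR's TMM factors) against 0 to 1.99 in the other 7. Shoot markers summed to between 17145 and 23486 CPM after zeocin and to between 19337 and 26362 in mock, which overlap, and none of their 7 measured genes was called, although 3 fell without zeocin library 1 and 1 without mock library 5.

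Nearly all changes of at least 3 on the log2 scale were rises, mostly of loci that were low without the drug. By edgeR's quasi-likelihood test with Benjamini-Hochberg adjustment over all loci, 5245 loci (27.0%) were called at an adjusted p below 0.05, of which 2917 (15.0% of those tested) rose and 2328 (12.0%) fell. Without the 3 libraries that stood apart, 2924 rose and 2275 fell. By at least 1 on the log2 scale 1004 loci rose and 406 fell. Larger sizes were more uneven: 211 loci rose and 1 fell by at least 3. A further step up, 85 rose by at least 5 and 39 by at least 7, and no fall reached 5. The 1 strong fall was AT4G00910, which is named here because of its value, with a log2 fold change of -4.13 ± 0.62. The 211 strong risers had a median level of 0.254 CPM in mock and 7.79 CPM after zeocin, and 119 of them lay under 0.5 CPM in mock. A locus so low in mock enters the test only through its zeocin counts, so this describes the risers and does not compare them with other genes. These 211 loci took between 0.0512% and 0.0768% of all counts in the mock libraries and between 1.43% and 1.68% in the zeocin libraries. The 406 loci that fell by at least 1 had a median of 3.87 CPM in mock.

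**Figure D1:**
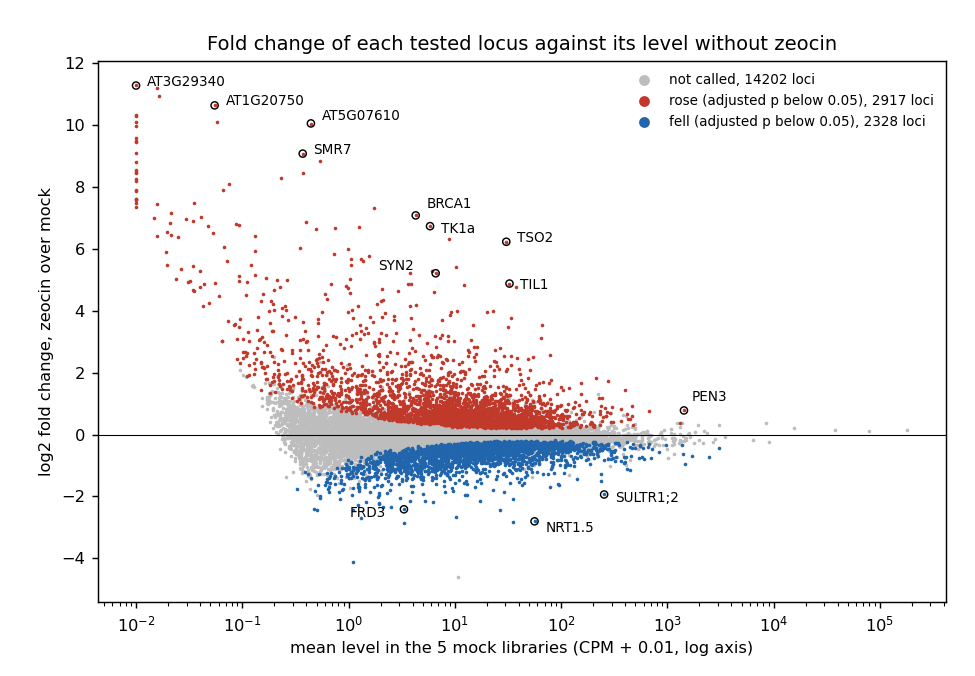
Each point is 1 of the 19447 tested loci, with its mean level in the 5 mock libraries on the x axis (CPM + 0.01, log axis) and its log2 fold change on the y axis, coloured by call. The rises reach above 11 among loci near 0 CPM, while the labelled falls lie between -1.94 and -2.8.

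Among single-gene loci that covered at least 50% of their gene and reached 1 CPM, the 15 largest rises were mostly of genes with no settled function in seedlings. AT3G29340, which encodes a C2H2 zinc finger protein, had no count in any mock library and 10.8, 8.06, 6.48, 8.33 and 6.74 CPM in zeocin libraries 1 to 5, at least 513-fold higher when the mock group is set to 3 counts. AT1G30170, of the DUF295 family, had 1 count over the mock group and 19.3, 21.5, 20.9, 18.4 and 19.6 CPM after zeocin, a ratio of pooled counts of 3871 (95% interval 694 to 152940.0) that covers counting error only, not the spread between libraries. The RAD3-like helicase gene AT1G20750 stood at 0.201, 0.00, 0.00, 0.0236 and 0.00 CPM in mock libraries 1 to 5 and at 64.3, 80.3, 72.5, 66.4 and 71.1 CPM in the zeocin libraries. AT5G07610, an F-box gene, went from 0.574, 0.664, 0.271, 0.306 and 0.346 to 345, 572, 485, 373 and 456 CPM. In all 4 of these genes the groups were far apart, and no zeocin library came near the mock range.

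Another 3 of the 15 had no count in any mock library. EC1.2, an egg cell-secreted protein, had no mock count and 3.44, 5.3, 2.67, 2.98 and 3.29 CPM after zeocin, at least 231-fold higher. SK9, a SKP1-like subunit of ubiquitin ligases, had no mock count and 3.99, 6.58, 3.87, 3.6 and 2.64 CPM, at least 270.4-fold higher, although reads it shares with near-identical SKP1-like copies make its count uncertain. The P450 gene CYP96A11 had none in mock and 4.45, 4.83, 2.06, 4.46 and 4.7 CPM after zeocin, at least 262-fold higher. These 3 genes stayed under 7 CPM in every zeocin library. The other genes of the 15 were AT4G25330 (SAWADEE domain), AT5G07165 (uncharacterized), AT3G56920 (DHHC zinc finger), AT5G11400 (protein kinase), AT1G23520 (DUF220), AT4G19360 (SCD6-like), AT3G48960 (ribosomal protein L13e family) and SMR7, described with the cell cycle genes, and their means after zeocin ran from 1.77 to 190 CPM (190 in SMR7).

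By gain in CPM the order was different. Since CPM is not corrected for gene length, this order is not one of transcript numbers. TSO2, the small subunit of ribonucleotide reductase, which makes deoxynucleotides, gained most, from 28.7, 33.6, 27, 31 and 32.3 CPM in mock to 2264, 2414, 2383, 2381 and 1955 CPM after zeocin. TIL1, the catalytic subunit of the replicative DNA polymerase epsilon, rose from 31.8, 35.7, 32.6, 36.5 and 27 to 848, 1111, 978, 918 and 939.5 CPM (log2 fold change 4.87 ± 0.12 (SE), adjusted p = 4.33e-13). Thymidine kinase TK1a, which salvages thymidine for DNA synthesis, rose from 5.08, 6.6, 7.14, 4.69 and 5.68 to 673, 608, 557, 708 and 544 CPM (log2 fold change 6.73 ± 0.15 (SE), adjusted p = 2.05e-13). Each of these genes was raised to a similar level in all 5 zeocin libraries. Others of the 10 largest gains were smaller in fold: CP1, a calcium-binding protein, went from 66.7 ± 23.9 to 772 ± 145 CPM (SD, n = 5), the calmodulin-like TCH3 from 402 ± 99 to 1082 ± 106, alanine aminotransferase AlaAT1 from 274 ± 28 to 912 ± 153, and the ABC transporter PEN3, which exports defence compounds, from 1435 ± 161 to 2459 ± 303. AT2G18193, a P-loop nucleoside triphosphatase, varied in mock, with 3.19, 64.9, 62.3, 47.8 and 10.9 CPM, and was even after zeocin, with 989, 1102, 1091, 1061 and 849 CPM.

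Of 13 measured genes of break sensing and signalling, 4 rose and 1 fell (30.8% and 7.69%, against 15.0% and 12.0% of all loci; median log2 fold change 0.20, against -0.02 over all loci). GMI1, a protein with an SMC hinge domain that acts in recombination repair, rose most, from 9.1, 13, 11, 12.9 and 5.47 to 445, 472, 410.1, 420.2 and 418 CPM (log2 fold change 5.4 ± 0.22 (SE), adjusted p = 1.47e-09). RAD17, which loads the checkpoint clamp, went from 3.44, 4.08, 4.61, 3.84 and 3.23 to 49.2, 53.7, 52.4, 50.4 and 54.3 CPM. The kinase WEE1, which restrains the cell cycle when DNA is damaged, rose from 2.55, 2.5, 1.75, 2.52 and 1.98 to 12.4, 10.8, 10.8, 10.7 and 10.9 CPM (log2 fold change 2.3 ± 0.13 (SE), adjusted p = 6.32e-09). None of these 3 genes had overlapping groups. The subunits of the break-binding complex went different ways: MRE11 fell (log2 -0.65 ± 0.12), while RAD50 had a log2 fold change of 0.01 ± 0.08 (adjusted p = 0.942) and NBS1 had a log2 fold change of 0.44 ± 0.17 (adjusted p = 0.0652, which became below 0.05 with DESeq2 and without zeocin library 5).

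Among 11 measured transcription factors of the damage response 5 rose and 1 fell (45.5% and 9.09%, against 15.0% and 12.0% of all loci; median log2 0.39). NAC103, a NAC factor known from damage and endoplasmic reticulum stress, stood at 1.09, 0.948, 0.862, 1.04 and 0.992 CPM in mock and at 57.2, 69.8, 64.3, 56.5 and 64.9 CPM after zeocin (log2 fold change 5.98 ± 0.11 (SE), adjusted p = 1.73e-14). The E2F factors E2FC (log2 0.71 ± 0.11), E2FB (log2 0.65 ± 0.11) and E2FA (log2 0.39 ± 0.11), which govern entry into S phase, rose by less. Of the MYB3R factors, which control mitotic genes, the activator MYB3R4 fell (log2 -0.63 ± 0.11), and the repressors MYB3R3 (log2 0.06 ± 0.12, adjusted p = 0.767) and MYB3R5 (log2 0.32 ± 0.13, adjusted p = 0.0936) did not pass the test.

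Inhibitors of cyclin-dependent kinases halt the cell cycle. Of 15 measured genes 6 rose and 3 fell (40% and 20%, against 15.0% and 12.0% of all loci), and 4 of the 6 that rose carry symbols of the SIAMESE family. SMR7 stood at 0.23, 0.695, 0.246, 0.354 and 0.277 CPM in mock and 175, 219, 222, 179.6 and 153 CPM after zeocin. SMR4 rose from 0.0287, 0.158, 0.246, 0.236 and 0.346 to 5.61, 7.68, 6.68, 7.8 and 5.88 CPM (log2 fold change 4.98 ± 0.30 (SE), adjusted p = 1.19e-08). Mock library 1 was the lowest of its group in both genes. SMR1 rose (log2 1.88 ± 0.14), SIM, the founding member that drives endoreduplication in leaf hairs (log2 1.32 ± 0.15), and AT5G40460, annotated as an SMR3-like inhibitor of that family (log2 1.28 ± 0.18). In the KRP family KRP6 rose, from 4.94, 5.4, 9.19, 8.39 and 5.72 to 36.4, 42, 42.2, 32.3 and 40.2 CPM (log2 fold change 2.52 ± 0.17 (SE), adjusted p = 1.24e-07). KRP2 and KRP5 fell (log2 -1.02 ± 0.29 and log2 -0.69 ± 0.24), the first at 1.92, 1.86, 2.04, 3.28 and 2.38 CPM in mock and 0.925, 0.981, 1.39, 1.85 and 0.553 after zeocin. These falls were weakly held: KRP2 lost its call without mock library 4, KRP5 lost it without any 1 of mock libraries 3 and 4 and zeocin libraries 1, 2, 4 and 5, and of the 3 falls 1 was called without mock library 4 or zeocin library 4.

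Cyclins and their partners mostly fell, with 8 of 15 measured genes called lower (53.3%, against 12.0% of all loci). Called higher were 2 (13.3%, close to the 15.0% of all loci), and the median log2 was -0.51. The 2 that rose were CYCB1;1, with 3.62, 3.95, 3.84, 3.11 and 4.31 CPM in mock and 132, 144, 142, 144 and 139 after zeocin, and CCS52A1, which turns on destruction of mitotic cyclins and promotes endoreduplication, with 11.9, 11.8, 13.6, 13 and 12.1 and 35.7, 61.6, 61.9, 39.5 and 53.5 CPM (log2 fold change 2.02 ± 0.15 (SE), adjusted p = 2.39e-07). The other B-type cyclins moved the opposite way. CYCB2;1 fell from 1.52, 1.3, 0.911, 1.15 and 1.38 to 0.722, 0.28, 0.392, 0.364 and 0.201 CPM (log2 fold change -1.68 ± 0.34 (SE), adjusted p = 0.00194), CYCB1;4 from 4.82, 4.14, 4.65, 4.78 and 6.21 to 1.7, 2.38, 1.86, 2.05 and 1.46 CPM (log2 fold change -1.38 ± 0.17 (SE), adjusted p = 2.92e-05), and CYCB1;2 (log2 -1.18 ± 0.17). No zeocin library of these 3 genes reached the mock range. CDC20.1 and CDC20.2, near-identical activators of mitotic exit that share reads, fell (log2 -0.69 ± 0.13 and log2 -0.96 ± 0.12). The kinase gene CDKA;1 had a log2 fold change of 0.03 ± 0.08 (adjusted p = 0.799).

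**Figure D2:**
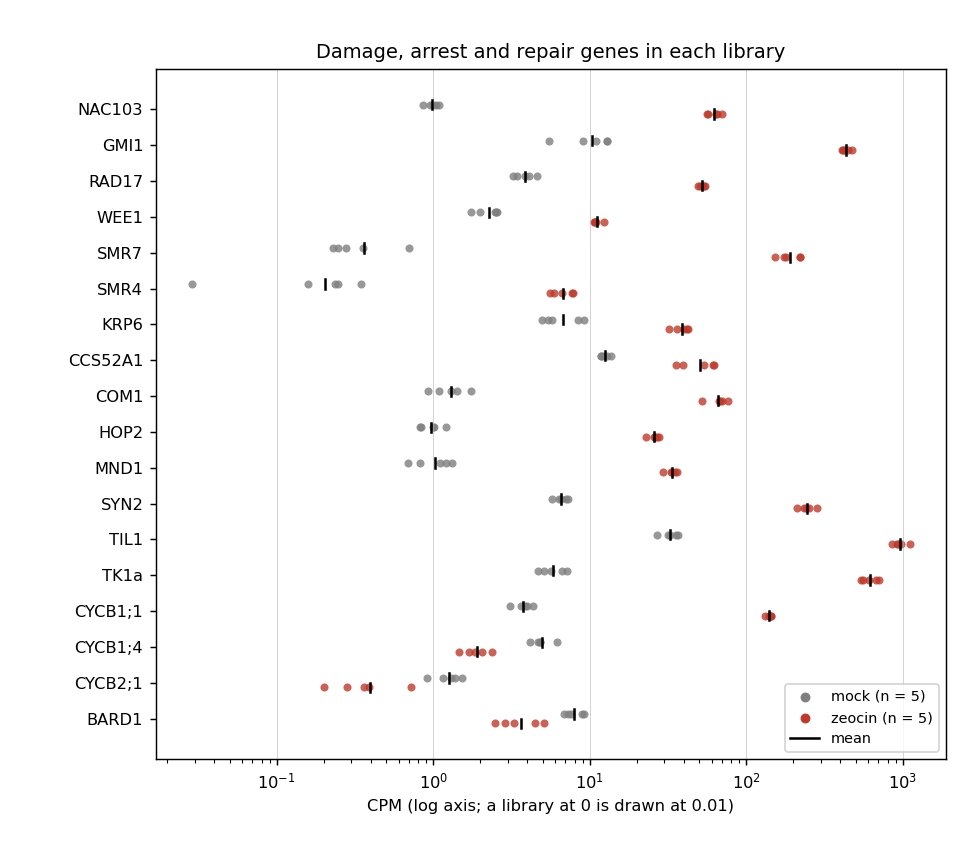
Levels of 18 genes in each of the 10 libraries on a log axis of CPM, with mock libraries in grey, zeocin libraries in red and the group mean as a bar. In every gene shown the groups do not overlap, and CYCB1;4, CYCB2;1 and BARD1 are the ones whose zeocin libraries lie lower.

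Recombination repair genes did not move as one. Of 19 measured genes 8 rose and 2 fell (42.1% and 10.5%, against 15.0% and 12.0% of all loci; median log2 0.31), and RAD51B was too low to test. The share that fell was thus close to that of all loci. Under the alternatives the rises ranged from 7 to 9, mostly 7, and the falls from 2 to 3. RAD54, which remodels DNA for strand invasion, rose from 5.74, 5.06, 3.77, 4.67 and 3.92 to 39.6, 43.9, 45.5, 46 and 40.9 CPM (log2 fold change 3.22 ± 0.12 (SE), adjusted p = 2.83e-11). COM1, which starts resection of the ends, rose from 1.09, 1.3, 1.75, 1.41 and 0.923 to 66.6, 76.1, 67.6, 69.8 and 52.4 CPM. BRCA1 went to between 544 and 640.5 CPM from between 3.89 and 4.62, whereas its known partner BARD1 fell from 6.83, 7.27, 7.61, 8.93 and 9.18 to 2.86, 2.48, 4.48, 3.27 and 5.08 CPM. FANCM, a helicase that limits crossovers, rose (log2 0.64 ± 0.16) with overlapping groups. The recombinase paralogs RAD51D (log2 -0.42 ± 0.16, adjusted p = 0.0617) and XRCC2 (log2 -0.24 ± 0.18, adjusted p = 0.369) and the helicase RECQ4A (log2 0.02 ± 0.09, adjusted p = 0.913) did not pass, although RAD51D was called lower in 3 of 16 alternatives.

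Of 9 measured genes known from meiosis 4 rose in these seedlings (44.4%, against 15.0% of all loci) and none fell. MND1 and HOP2, partners that help recombinases pair homologous strands, rose together. MND1 stood at 1.21, 0.822, 0.69, 1.11 and 1.31 CPM in mock and at 33.5, 36.1, 35.1, 33.2 and 29.3 CPM after zeocin (log2 fold change 5.01 ± 0.15 (SE), adjusted p = 3.27e-12). HOP2 went from 1.21, 0.822, 0.837, 1.01 and 0.992 to 26.3, 27.7, 25.9, 26.8 and 22.8 CPM (log2 fold change 4.73 ± 0.12 (SE), adjusted p = 5.72e-13). ASY3, a protein of the meiotic chromosome axis, rose (log2 1.81 ± 0.12), and SYN1, the meiotic cohesin (log2 1.22 ± 0.28) on a locus that covers 44.9% of the gene. The meiotic recombinase DMC1 had a log2 fold change of 0.27 ± 0.13 (adjusted p = 0.151), and SPO11-1, SPO11-2, PRD1, ZYP1A and MSH4 were too low to test.

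In chromatin the largest change was in SYN2, a cohesin subunit of somatic cells, which rose from 6.37, 5.75, 7.07, 7.24 and 6.55 to 211, 282, 253, 233 and 241 CPM (log2 fold change 5.21 ± 0.11 (SE), adjusted p = 9.02e-14). SMC6B, of a complex that holds sister chromatids for repair, rose (log2 0.44 ± 0.10) and the histone chaperone ASF1A (log2 0.55 ± 0.14), whereas HTA5, an H2A.X histone that is phosphorylated at breaks, fell (log2 -0.51 ± 0.11). Of 14 measured genes of this list 4 rose and 1 fell (28.6% and 7.14%, against 15.0% and 12.0% of all loci), or 2 fell with upper quartile factors, nuclear loci alone, DESeq2's test, the replicate number as a term, without mock library 2, without zeocin library 1 and without the 3 libraries together. No gene was called among 6 of mismatch repair, in which MSH7 had a log2 fold change of -0.22 ± 0.12 (adjusted p = 0.211). The same held for 7 of telomere maintenance, in which POT1B had a log2 fold change of -0.52 ± 0.19 and an adjusted p of 0.0513 that fell below 0.05 with upper quartile factors, DESeq2's size factors, nuclear loci alone, DESeq2's test and without zeocin library 4.

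Promoters were read from 250 bases before to 50 after the annotated start of 18099 single-gene loci on the nuclear chromosomes. The SOG1 consensus, CTT and AAG separated by 7 bases and the same on both strands, was held by 25 of 70 promoters (35.7%) of genes that rose by at least 5, by 28.2% of those that rose by 3 to 5, by 18.9% at 1 to 3 and by 12.8% under 1. It was held by 10.6% of promoters of genes not called, by 8.60% and 7.16% of those that fell by under 1 and by at least 1, and by 11.1% of all. Median GC content ran from 33.7% in promoters of genes that rose by at least 5 to 30.3% in those of genes that fell by at least 1, with 32% among genes not called, 31% in both sets that rose by less than 3 and 31.7% over all. Its part in the shares was not tested. In the 58 promoters of genes that rose by at least 3 there were 72 matches, with a median centre 58.5 bases before the start and 45 centres within the 150 bases before it. With only the 250 bases before the start, the share was 24.1% in those genes and 8.97% in all. A match is a run of letters and does not show that the factor was bound there.

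Among 21 genes of the lists that rose by at least 3, 8 held the consensus, among them NAC103, SMR4, SMR7, COM1, RAD54, GSTU25 and OXI1. BRCA1, XRI1, CYCB1;1, MND1, HOP2, SYN2, GMI1 and RAD17 did not in this window. Of the 15 largest rises of all genes, 6 held it: SMR7, EC1.2, AT1G20750, AT1G23520, AT5G11400 and AT3G48960. The promoters of 4 list members with large rises and a match are shown, because they place the letters beside genes of arrest, repair and transcription. Sequences are from the RefSeq copy of the TAIR10.1 assembly and run 5′ to 3′ on the gene's strand, with the CTT and AAG of each match in capitals. They lie at chr3:10231518-10231817 on the minus strand for SMR7, at chr5:25635740-25636039 on the minus strand for NAC103, at chr3:19325785-19326084 on the plus strand for COM1 and at chr5:442138-442437 on the minus strand for SMR4.
SMR7: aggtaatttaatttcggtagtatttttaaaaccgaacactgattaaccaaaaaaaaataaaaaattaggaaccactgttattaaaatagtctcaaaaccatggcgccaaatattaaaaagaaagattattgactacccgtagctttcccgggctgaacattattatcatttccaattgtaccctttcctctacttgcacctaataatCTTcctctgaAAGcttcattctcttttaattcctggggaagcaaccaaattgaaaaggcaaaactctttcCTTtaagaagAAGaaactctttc
NAC103: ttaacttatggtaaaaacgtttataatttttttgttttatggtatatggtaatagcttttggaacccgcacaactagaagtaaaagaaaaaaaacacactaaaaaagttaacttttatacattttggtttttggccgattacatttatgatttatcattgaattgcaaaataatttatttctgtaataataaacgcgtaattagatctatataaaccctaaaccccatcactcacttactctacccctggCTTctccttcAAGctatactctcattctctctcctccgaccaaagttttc
COM1: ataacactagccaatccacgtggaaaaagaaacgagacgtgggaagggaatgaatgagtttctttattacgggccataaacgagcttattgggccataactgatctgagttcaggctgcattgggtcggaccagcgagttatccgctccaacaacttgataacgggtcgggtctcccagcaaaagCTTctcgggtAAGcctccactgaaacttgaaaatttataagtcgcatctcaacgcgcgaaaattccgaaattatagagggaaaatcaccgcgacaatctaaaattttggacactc
SMR4: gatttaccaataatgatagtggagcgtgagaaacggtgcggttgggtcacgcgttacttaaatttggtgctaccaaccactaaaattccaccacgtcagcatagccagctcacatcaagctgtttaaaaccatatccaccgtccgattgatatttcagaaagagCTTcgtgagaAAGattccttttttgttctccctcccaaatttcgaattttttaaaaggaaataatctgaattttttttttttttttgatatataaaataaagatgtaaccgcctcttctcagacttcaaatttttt

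The pentamer AACGG, on either strand, is the core of the mitosis-specific activator (MSA) element that MYB3R factors bind. It was held by 26.3% of promoters of genes that fell by at least 1 and by 25.9% of all, which are close. In the list of cyclins and partners 7 of 15 promoters held it (46.7%), among them 5 of the 8 of genes that fell. With only the 250 bases before the start, the share was 33.3% in that list and 21.6% in all. Both promoters below are shown because they belong to the falling cyclins with the largest changes and hold 3 matches each, which are in capitals (AACGG or its reverse CCGTT). They lie at chr2:7663805-7664104 on the plus strand for CYCB2;1 and at chr3:3627224-3627523 on the minus strand for CYCB1;3.
CYCB2;1: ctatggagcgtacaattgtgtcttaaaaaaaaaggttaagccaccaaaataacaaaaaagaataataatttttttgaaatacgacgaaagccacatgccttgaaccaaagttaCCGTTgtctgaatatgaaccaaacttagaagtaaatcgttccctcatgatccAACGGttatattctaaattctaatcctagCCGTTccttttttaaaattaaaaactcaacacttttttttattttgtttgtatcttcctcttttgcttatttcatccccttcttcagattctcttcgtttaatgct
CYCB1;3: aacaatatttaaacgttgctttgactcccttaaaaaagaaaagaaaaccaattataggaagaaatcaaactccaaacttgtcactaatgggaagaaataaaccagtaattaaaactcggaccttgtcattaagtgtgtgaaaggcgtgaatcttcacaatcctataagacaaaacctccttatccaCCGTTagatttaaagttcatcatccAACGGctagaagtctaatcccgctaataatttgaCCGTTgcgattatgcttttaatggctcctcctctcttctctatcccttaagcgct

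Other motifs were distributed differently. The W box TTGAC, bound by WRKY factors, was held on either strand by 64.9% of promoters of genes that rose by 1 to 3 and 66.7% at 3 to 5, against 48.6% at 5 or more and 51.5% of all. The site II element TGGGCC, bound by TCP factors, was held by 7.96% of promoters of genes that fell by at least 1, 8.57% of those that rose by at least 5 and 18.6% of all. It was held by 52.9% of proteasome promoters and 47.4% of those of the recombination list, or 41.2% and 42.1% in the 250 bases before the start alone. The E2F site TTCCCGC was held by 21.1% of promoters of the recombination list and 1.57% of all.

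**Figure D3:**
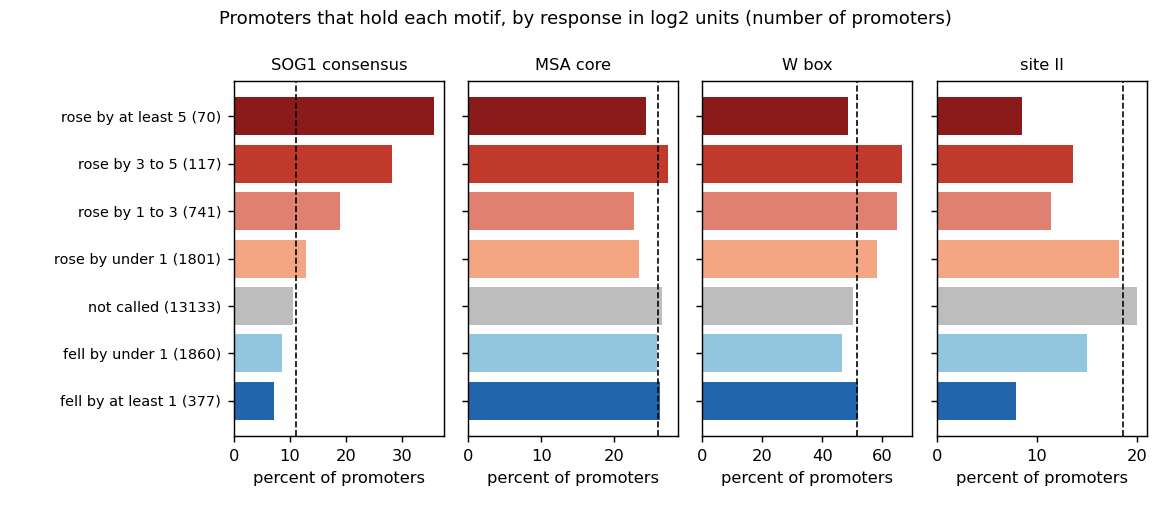
Share of promoters, in percent, that hold each of 4 motifs on either strand, by call and size of the change in log2 units, with the number of promoters in brackets and the share over all promoters as a dashed line. The SOG1 consensus runs from 7.16% in the strongest falls to 35.7% in the strongest rises, and the MSA core shows no such order.

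Protein turnover genes rose by small amounts in many members. Of 34 measured proteasome subunits 23 rose (67.6%, against 15.0% of all loci) and none fell, with a median log2 fold change of 0.32. PBD1, a subunit of the 20S core, stood at 17.5, 15.3, 19.4, 16.8 and 18.6 CPM in mock and 36.2, 33.7, 36.3, 35.2 and 33.4 CPM after zeocin (log2 fold change 1.0 ± 0.08 (SE), adjusted p = 3.56e-07). AT1G04810, a non-ATPase subunit of the 26S regulatory particle, rose (log2 1.0 ± 0.08), and RPN12b (log2 1.96 ± 0.46) from a mean of 0.241 CPM.

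Of 20 measured genes of autophagy and cell death 11 rose (55.0%, against 15.0% of all loci) and none fell (median log2 0.45). NBR1, the receptor that brings ubiquitinated cargo to the autophagosome, stood at 174, 191, 171, 168 and 161 CPM in mock and 355, 373, 372, 356 and 396 CPM after zeocin (log2 fold change 1.1 ± 0.08 (SE), adjusted p = 1e-07). The membrane protein genes ATG8E, ATG8A and ATG8B rose (log2 1.0 ± 0.21, log2 0.77 ± 0.15 and log2 0.66 ± 0.10), and AT3G61960, a protein kinase of the list (log2 0.84 ± 0.12). Of the proteases linked with cell death, the vacuolar enzyme VPEalpha rose from 2.55, 1.8, 2.81, 1.98 and 2.33 to 9.71, 8.87, 9.15, 9.75 and 9.12 CPM (log2 fold change 2.02 ± 0.14 (SE), adjusted p = 3.9e-08) and the metacaspase MC8 (log2 1.59 ± 0.33) with groups that overlapped in zeocin library 1. MC1 rose (log2 0.33 ± 0.11), a call lost with upper quartile factors and without any of 6 single libraries. The nuclease BFN1 (log2 0.14 ± 0.34, adjusted p = 0.81) and RNS3 (log2 0.15 ± 0.25, adjusted p = 0.708), which mark developmental cell death, did not pass.

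Of 88 measured immune receptors of the NLR type, which sense pathogen effectors inside the cell, 41 rose and 1 fell (46.6% and 1.14%, against 15.0% and 12.0% of all loci; median log2 0.38). WRR4, known for resistance to white rust, stood at 14.1, 18.9, 21, 11.8 and 10.7 CPM in mock and 113, 111, 105, 114 and 93.5 CPM after zeocin (log2 fold change 2.82 ± 0.18 (SE), adjusted p = 1.31e-07). AT5G40100 rose (log2 2.8 ± 0.17) and AT3G04220 (log2 2.34 ± 0.33), and the one that fell was AT2G17060 (log2 -0.67 ± 0.16), joined by another without zeocin library 1. Members of near-identical clusters share reads, and their counts are uncertain. Receptor-like kinases at the cell surface fell more often than they rose. Of 210 measured genes 72 were lower and 37 higher (34.3% and 17.6%, against 12.0% and 15.0% of all loci; median log2 -0.17). The largest rises were of cysteine-rich kinases: CRK6 stood at 0.172, 8.21, 15.5, 4.95 and 9.09 CPM in mock and 36.8, 125, 160.5, 52.5 and 116 after zeocin, lowest in both groups in library 1, and CRK8 rose (log2 5.62 ± 0.82) on a locus that covers 41.5% of the gene. The largest falls were AT3G50230 (log2 -1.95 ± 0.35), AT3G21340 (log2 -1.53 ± 0.49) and AT5G37450 (log2 -1.46 ± 0.17). Of these AT3G21340 lost its call without any of 8 single libraries.

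Of 56 measured NAC transcription factors, the family of the damage regulators above, 20 rose and 4 fell (35.7% and 7.14%, against 15.0% and 12.0% of all loci). ANAC087, known from cell death in the root cap, rose from 5.94, 8.91, 7.02, 8.27 and 5.95 to 43.5, 73.2, 79.3, 50.9 and 65.4 CPM (log2 fold change 3.11 ± 0.18 (SE), adjusted p = 7.96e-08), lowest of its group in zeocin libraries 1 and 4. The 4 falls, such as NAC080 (log2 -0.95 ± 0.18), became 2 without any 1 of mock libraries 1, 2 or 4 or zeocin libraries 2, 3 or 4. Of 37 ERF and AP2 factors 10 rose and 4 fell (27.03% and 10.8%, against 15.0% and 12.0% of all loci), with ERF6 (log2 1.72 ± 0.23) and ERF8 (log2 1.38 ± 0.13). Of 196 RING-type ligase genes 38 rose and 15 fell (19.4% and 7.65%, against 15.0% and 12.0% of all loci), with EDA18 (log2 2.63 ± 0.17) and ATL15 (log2 -1.16 ± 0.21). Of 148 F-box genes 27 rose and 7 fell (18.2% and 4.73%), with the rises close to the background of 15.0%. The rises numbered 12 without mock library 1 and zeocin libraries 1 and 4, while the falls numbered 4 without zeocin library 2, 3 or 5. Besides AT5G07610 the largest rise was of AT2G24255 (log2 6.91 ± 0.57).

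Detoxification genes rose in part. Of 17 measured genes that respond to foreign chemicals 6 rose (35.3%, against 15.0% of all loci) and none fell, or 1 fell without mock library 1 (median log2 0.27). GSTU25, a glutathione transferase, stood at 0.574, 1.07, 1.38, 0.731 and 0.923 CPM in mock and 16, 34.6, 28.3, 27.7 and 22.5 CPM after zeocin. UGT73B4, a glycosyltransferase, rose from 1.35, 5.78, 5.71, 3.37 and 2.75 to 38, 89.8, 86, 58.9 and 66.2 CPM (log2 fold change 4.16 ± 0.42 (SE), adjusted p = 8.56e-05) and its near-identical neighbour UGT73B5, with which it shares reads (log2 1.98 ± 0.18). In GSTU25 and UGT73B4 library 1 was the lowest of both groups. Markers of the same response varied widely between libraries and did not pass, among them the P450 gene CYP81D8 (log2 0.61 ± 0.71, adjusted p = 0.579) and UGT74E2 (log2 0.83 ± 1.02, adjusted p = 0.603). TGACG, the core of the as-1 element bound by TGA factors, was held by 64.7% of promoters of this list and 23.7% of all.

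Of 13 genes of reactive oxygen 3 rose and 1 fell (23.1% and 7.69%, against 15.0% and 12.0% of all loci). OXI1, a kinase that responds to hydrogen peroxide, stood at 0.545, 4.8, 3.89, 1.01 and 0.346 CPM in mock and 32.6, 45.3, 47.3, 39.2 and 45.3 CPM after zeocin (log2 fold change 4.33 ± 0.65 (SE), adjusted p = 0.00124). The zinc finger factor ZAT10 rose (log2 1.88 ± 0.27) and AT2G21640, annotated as a marker of oxidative stress (log2 2.08 ± 0.49). The cytosolic peroxidase APX1 (log2 -0.10 ± 0.17, adjusted p = 0.712) and the oxidase RBOHD (log2 0.35 ± 0.16, adjusted p = 0.113) did not pass, although RBOHD was called higher in 2 of 16 alternatives. CAT2, a leaf catalase, fell (log2 -0.27 ± 0.09), a call lost without any 1 of mock libraries 1 and 4 and zeocin libraries 2 to 5. Of 8 genes of the unfolded protein response of the endoplasmic reticulum 2 fell (25%, against 12.0% of all loci), CRT1 (log2 -0.63 ± 0.14) and SDF2 (log2 -0.58 ± 0.17). That count was 4 without mock library 1 and 1 without zeocin library 4. BIP2 (log2 -0.75 ± 0.31, adjusted p = 0.103) did not pass but was called lower in 2 of 16 alternatives.

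Genes of growth hormones were lower after zeocin in many cases. Of 20 measured auxin genes 10 fell and 1 rose (against 12.0% lower and 15.0% higher over all loci; median log2 -0.44). Of the transport genes the efflux carrier PIN3 fell (log2 -0.98 ± 0.24) and the influx carrier LAX3 went from 24.7, 23.7, 25.2, 27.9 and 30.5 to 11.8, 13.8, 14.4, 15.2 and 13.9 CPM. TAA1 and YUC9, enzymes of auxin synthesis, fell (log2 -0.91 ± 0.24 and log2 -0.80 ± 0.22), the first with overlapping groups. LBD16, which starts lateral roots, stood at 1.32, 0.916, 1.31, 1.01 and 1.73 CPM in mock and 0.231, 0.327, 0.245, 0.43 and 0.528 CPM after zeocin (log2 fold change -1.83 ± 0.32 (SE), adjusted p = 0.000626). The repressor gene IAA5 was the one that rose, from 0.0861, 0.158, 0.616, 0.00 and 0.0692 to 3.96, 3.43, 2.42, 4.13 and 3.72 CPM (log2 fold change 4.22 ± 0.58 (SE), adjusted p = 0.000208). By DESeq2's test, or without mock library 5, a second auxin gene rose. The receptor TIR1 (log2 -0.31 ± 0.13, adjusted p = 0.107) and the response factor ARF7 (log2 -0.04 ± 0.09, adjusted p = 0.794) did not pass, although TIR1 was called lower in 1 of 16 alternatives.

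Of 18 gibberellin and brassinosteroid genes 9 fell and 1 rose (against 12.0% lower and 15.0% higher over all loci; median log2 -0.54). GA3OX1, which makes the active gibberellins, stood at 16.1, 13.6, 15.1, 16.2 and 17.3 CPM in mock and 5.55, 5.44, 4.43, 4.3 and 4.4 CPM after zeocin (log2 fold change -1.7 ± 0.11 (SE), adjusted p = 3.04e-08). GA20OX2, one step earlier, fell (log2 -1.36 ± 0.31), and GA2OX6, which inactivates gibberellins, was the gene that rose (log2 0.61 ± 0.17). The growth repressors GAI and RGA fell (log2 -0.65 ± 0.17 and log2 -0.35 ± 0.10), RGA losing its call without zeocin library 2, 3 or 5. BAS1, which inactivates brassinosteroids, fell (log2 -1.18 ± 0.21) and the synthesis gene BR6OX2 (log2 -0.70 ± 0.12). Of 14 cytokinin genes 2 rose and 2 fell, 14.3% each way and close to the 15.0% and 12.0% of all loci. CKX5, which degrades the hormone, rose (log2 1.07 ± 0.18) and the response regulator ARR5 (log2 0.79 ± 0.14). The 2 falls, IPT5 (log2 -1.24 ± 0.41) and AHK2 (log2 -0.39 ± 0.13), were both lost without mock library 1 or 5 or zeocin library 2, 4 or 5. CYP735A1, which makes trans-zeatin, had one of the 15 largest falls (log2 -2.22 ± 0.31).

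Transporters of nitrate, phosphate and citrate with known roles in loading the root's xylem are described first, since 2 of them belong to the 15 largest falls. NRT1.5, which loads nitrate, stood at 61.5, 59.8, 54.4, 48.7 and 57 CPM in mock and 9.25, 6.21, 7.61, 8.03 and 9.23 CPM after zeocin (log2 fold change -2.8 ± 0.12 (SE), adjusted p = 1.15e-10). PHO1, which loads phosphate, went from 80.0, 82.2, 79.5, 74.2 and 78.7 to 20.9, 25.9, 23.2, 23.7 and 29.2 CPM (log2 fold change -1.68 ± 0.09 (SE), adjusted p = 2.48e-09). FRD3, which loads the citrate that carries iron, went from 3.24, 3.22, 3.18, 3.02 and 3.9 to 0.78, 0.771, 0.44, 0.661 and 0.452 CPM (log2 fold change -2.41 ± 0.22 (SE), adjusted p = 1.07e-06). In these 3 genes every zeocin library lay under every mock library. The nitrate transporter NRT2.1, also among the 15, stood at 24.6, 33.9, 36.9, 38.7 and 42.9 CPM in mock and 5.49, 3.18, 5.92, 4.46 and 6.11 CPM after zeocin, and the sulfate transporter SULTR1;2 at 228, 252.23, 241, 279 and 272 and 61.6, 61.9, 63.2, 65.8 and 80.0 CPM (log2 fold change -1.94 ± 0.10 (SE), adjusted p = 1.34e-09). SULTR1;1, its relative, fell from 4.13, 2.43, 4.01, 4.88 and 3.48 to 0.578, 1.19, 0.905, 0.661 and 0.905 CPM.

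In the lists of genes tied to hunger for phosphate, sulfur and iron, some members fell and most did not pass the test. Of 13 phosphate genes 4 fell (30.8%, against 12.0% of all loci), PHO1, PHT1;1 (log2 -1.44 ± 0.10), PHT1;4 (log2 -0.96 ± 0.14) and the transporter's trafficking factor PHF1 (log2 -0.83 ± 0.15), while the starvation markers SPX1 (log2 -0.05 ± 0.22, adjusted p = 0.896) and IPS1 (log2 -0.15 ± 0.80, adjusted p = 0.917) did not pass. Of 11 sulfur genes 5 fell (45.5%, against 12.0% of all loci), or 3 without mock library 5 or zeocin library 3, and the starvation markers LSU1 (log2 0.07 ± 0.51, adjusted p = 0.936) and SDI1 (log2 0.52 ± 0.32, adjusted p = 0.25) did not pass. Of 16 iron genes 4 fell (25%, against 12.0% of all loci) and 2 rose (12.5%, close to the 15.0% of all loci), with 1 higher without mock library 4 or 5 or zeocin library 2 and 4 higher without zeocin library 5. FIT, the regulator of iron uptake, fell (log2 -1.18 ± 0.13), and its targets IRT1 (log2 2.5 ± 0.97, adjusted p = 0.0816) and FRO2 (log2 1.07 ± 0.46, adjusted p = 0.107) did not pass. However, IRT1 was called higher without mock library 1 or zeocin library 5, and FRO2 in 1 of 16 alternatives. CYP82C4, induced by iron hunger, stood at 0.402, 0.00, 0.148, 0.0707 and 0.0461 CPM in mock and 1.68, 2.57, 0.661, 0.562 and 0.101 CPM after zeocin, and its rise was lost without mock library 4 or 5 or zeocin library 2. Of 9 copper genes 1 rose (11.1%, against 15.0% of all loci) and none fell. The riser was the chaperone CCH (log2 0.57 ± 0.16), a call lost without mock library 3 or 4. Of 12 genes of sugar starvation 1 fell (8.33%, against 12.0% of all loci), TPS5 (log2 -0.60 ± 0.12), and none rose. ASN1, a marker of carbon hunger, had a log2 fold change of -0.69 ± 0.77 (adjusted p = 0.555).

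Most root markers were lower too. Of 12 root markers 7 fell (58.3%, against 12.0% of all loci) and none rose, and their summed level lay between 98.8 and 117 CPM in the zeocin libraries and between 226 and 288 in mock, with no overlap. That sum is mostly PHT1;1 and NRT2.1, which are also nutrient genes and count among the 7 falls. IRT1, another of the 12, went the other way, with a log2 fold change of 2.5 that did not pass. A root marker was called higher without mock library 1, without zeocin library 5 or with the replicate number as a term. The patterning genes SCR and SHR fell (log2 -0.56 ± 0.09 and log2 -0.58 ± 0.12), PLT1, of the root stem cell niche (log2 -1.57 ± 0.46) without a call when mock library 4 was left out, and CASP1, of the endodermis (log2 -1.2 ± 0.11). The root cap genes SMB (log2 -0.08 ± 0.46, adjusted p = 0.919) and BRN1 (log2 -0.51 ± 0.52, adjusted p = 0.513) did not pass. The part of the root markers in the falls of transporters was not tested, and in whole seedlings fewer root cells and less RNA per root cell cannot be told apart.

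**Figure D4:**
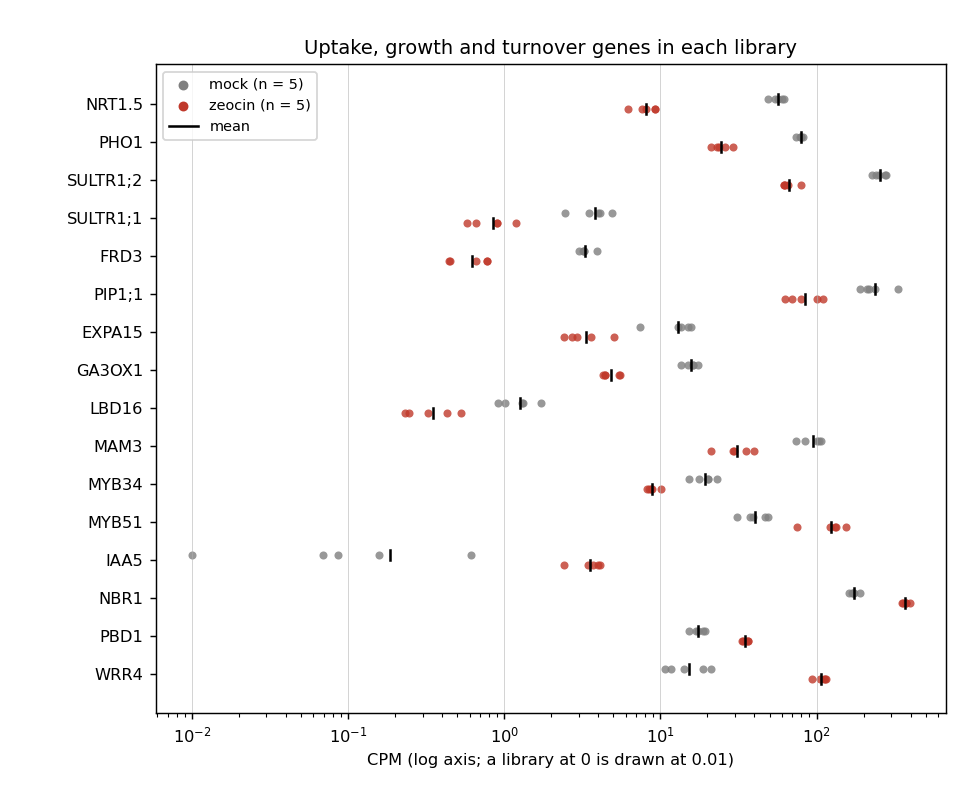
Levels of 16 genes in each of the 10 libraries on a log axis of CPM, with mock libraries in grey, zeocin libraries in red and the group mean as a bar. The groups do not overlap in any of them, and MYB51, IAA5, NBR1, PBD1 and WRR4 are the ones that lie higher after zeocin.

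Water channels, wall loosening and root hairs fell together. Of 11 aquaporins 8 fell (72.7%, against 12.0% of all loci) and none rose (median log2 -0.69). PIP1;1, of the plasma membrane, stood at 332, 238, 215, 189 and 210.3 CPM in mock and 109, 62.4, 69.5, 79.5 and 100.3 CPM after zeocin (log2 fold change -1.49 ± 0.18 (SE), adjusted p = 7.16e-05). PIP2;1 went from 691, 528, 369.6, 303 and 357 to 301, 151, 139.7, 223 and 205 CPM, highest in library 1 of both groups, so that mock library 4 and zeocin library 1 nearly met. PIP2;2 and PIP2;3, near-identical neighbours whose counts are uncertain because they share reads, fell (log2 -1.24 ± 0.20 and log2 -1.55 ± 0.26). Of 12 expansins, which loosen walls, and cellulose synthases of growing walls 7 fell (58.3%, against 12.0% of all loci; median log2 -0.63), with EXPA15 from 7.43, 13.6, 15.7, 12.9 and 14.9 to 3.61, 2.73, 2.94, 5.06 and 2.41 CPM (log2 fold change -1.96 ± 0.23 (SE), adjusted p = 3.6e-05), EXPB3 (log2 -1.42 ± 0.19) and EXPB1 (log2 -1.34 ± 0.27). Of 7 root hair genes 5 fell (71.4%, against 12.0% of all loci; median log2 -0.88), among them the regulator RHD6 (log2 -0.88 ± 0.20) and the wall genes PRP3 (log2 -1.12 ± 0.20) and EXPA18 (log2 -1.03 ± 0.20), and RSL4, a regulator of hair growth, had a log2 fold change of 0.54 ± 0.25 (adjusted p = 0.122). Of 7 secondary wall genes of the xylem none fell and 1 rose (14.3%, close to the 15.0% of all loci). The cellulose synthase CESA4 had a log2 fold change of 0.02 ± 0.10 (adjusted p = 0.884) and VND6, a vessel factor, rose (log2 1.05 ± 0.33) in a call lost without zeocin library 3, 4 or 5 and joined by another without mock library 1.

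Genes of glucosinolates, the defence compounds of the mustard family, mostly fell. Of 15 genes 11 fell and 2 rose (73.3% and 13.3%, against 12.0% and 15.0% of all loci), with a median log2 of -0.73. The share that rose was close to that of all loci. In the branch from methionine MAM3, which lengthens the side chain, went from 74.2, 84.7, 104, 101 and 108 to 21, 29.4, 35.1, 29.6 and 39.7 CPM (log2 fold change -1.61 ± 0.16 (SE), adjusted p = 7.77e-06), the regulators MYB28 and MYB29 fell (log2 -1.0 ± 0.08 and log2 -0.85 ± 0.17), and CYP83A1 (log2 -0.95 ± 0.12). In the branch from tryptophan the regulator MYB34 fell from 17.7, 15.4, 20.195, 20.08 and 23 to 8.41, 10.1, 8.88, 8.23 and 8.65 CPM (log2 fold change -1.12 ± 0.11 (SE), adjusted p = 3.74e-06), while its relative MYB51 rose from 37.6, 48.5, 39.3, 30.9 and 46.6 to 74.7, 155, 131, 123 and 132 CPM (log2 fold change 1.6 ± 0.18 (SE), adjusted p = 4.36e-05). CYP83B1, of the same branch, rose (log2 0.67 ± 0.13) and CYP79B3 fell (log2 -1.04 ± 0.13). ESM1, which shapes glucosinolate breakdown, was among the 10 largest losses in CPM, from 604 ± 145 to 352 ± 34 (SD, n = 5).

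**Figure D5:**
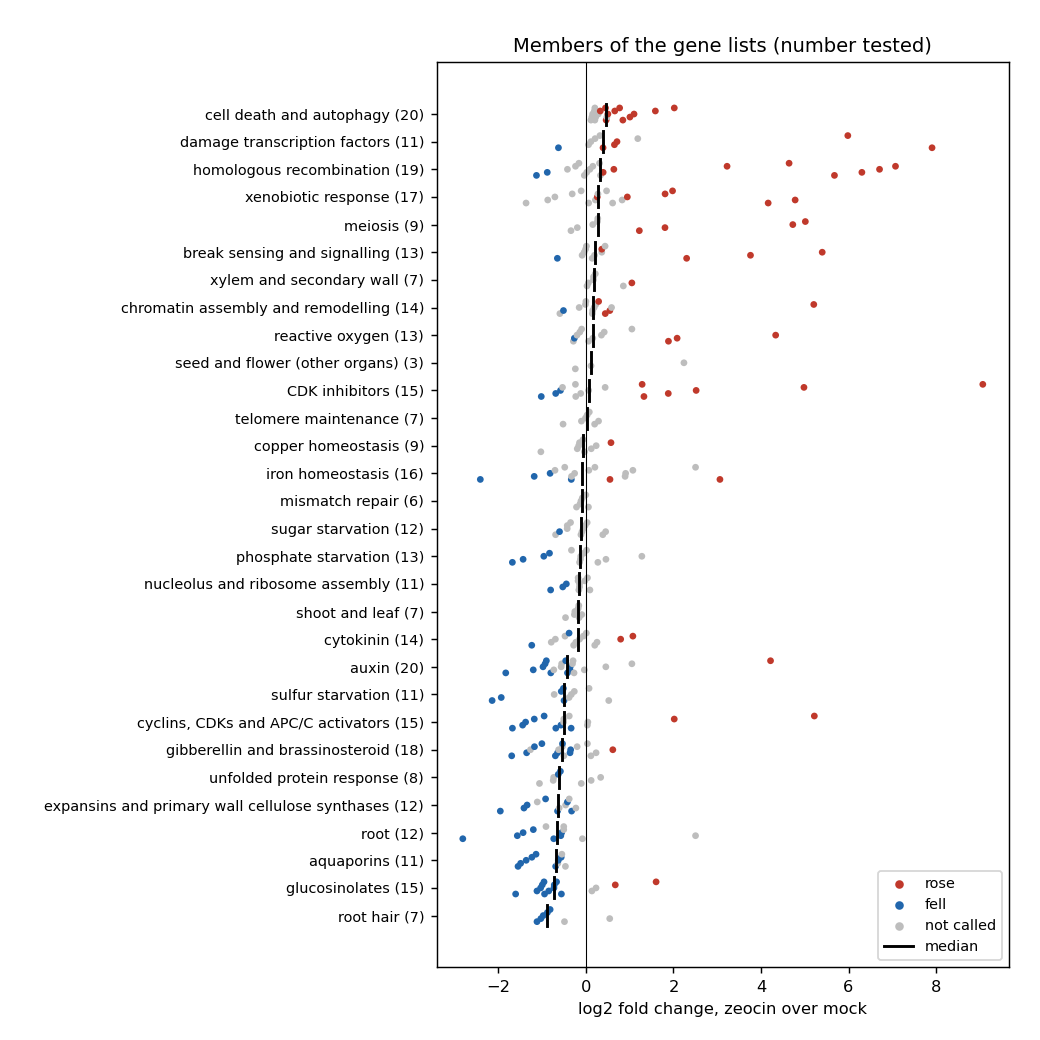
Log2 fold changes of the tested members of 30 gene lists, with the number tested in brackets, coloured by call, and the list's median as a bar. The lists of inhibitors of cyclin-dependent kinases and of homologous recombination reach above 7, with medians of 0.06 and 0.31. Those of mismatch repair and telomere maintenance stay below 0.3. All members of the aquaporin list and of the expansin and cellulose synthase list lie between -2 and 0, while the auxin list reaches 4.22.

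The 10 largest losses in CPM were of abundant transcripts. CWLP, which links wall and membrane, went from 2348, 2163, 2785, 3039.8 and 2096 to 1277, 1472, 1612, 1232 and 1936 CPM. AT2G10940, of the lipid-transfer superfamily, went from 1481 ± 191 to 767 ± 139 CPM, and GLT1, a glutamate synthase that assimilates ammonium, from 1724 ± 243 to 1072 ± 52.1 (SD, n = 5). The methionine synthase ATMS1 and the hydrolase HOG1, which serve methylation, fell (log2 -0.43 ± 0.13 and log2 -0.33 ± 0.10). Both of these calls were lost without any 1 of mock libraries 3 and 4 and zeocin libraries 2 and 4. The germin-like GER1 (log2 -0.75 ± 0.16), the peroxidase PRXR1 (log2 -0.57 ± 0.09) and the tonoplast channel TIP1;2 (log2 -0.63 ± 0.19, a call lost without any of 6 single libraries) completed the 10 with ATMS1, HOG1, ESM1 and PIP2;1.

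The largest falls in fold beside those of transporters were CYP707A2, XTH21, AT2G48080 (a 2OG oxygenase), AT3G05770, AT2G28780, AT2G16230 (a glycosyl hydrolase), AT4G28410 (a tyrosine transaminase), AT2G37960, STS, XTH33 and AT2G16580 (SAUR-like). CYP707A2, which breaks down abscisic acid, stood at 0.775, 2.81, 4.61, 5.66 and 2.75 CPM in mock and 0.202, 0.981, 0.587, 0.231 and 0.226 CPM after zeocin, and mock library 1 lay within the zeocin range. XTH21 and XTH33, which remodel xyloglucan in walls, fell (log2 -2.7 ± 0.63 and log2 -2.18 ± 0.20), and the stachyose synthase STS (log2 -2.25 ± 0.37). Of 55 class III peroxidases 20 fell and 9 rose (36.4% and 16.4%, against 12.0% and 15.0% of all loci), from AT5G19890 (log2 -1.51 ± 0.24) to AT1G14550 (log2 2.19 ± 0.24). Of 164 P450 genes 31 rose and 30 fell (18.9% and 18.3%, against 15.0% and 12.0% of all loci), and of 93 glycosyltransferases 24 rose and 18 fell (25.8% and 19.4%).

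Of 11 genes of the nucleolus, where ribosomes are assembled, 3 fell (27.3%, against 12.0% of all loci) and none rose, or 5 fell with upper quartile factors. They were FIB2 (log2 -0.81 ± 0.14) and NAP57 (log2 -0.53 ± 0.10), which modify ribosomal RNA, and NUC1 (log2 -0.45 ± 0.12). The telo box AAACCCTA was held by 63.6% of promoters of this list and 5.57% of all in the full window, but by 9.09% and 3.58% in the 250 bases before the start alone. Ribosomal protein gene RPS6B had a log2 fold change of -0.18 ± 0.09 (adjusted p = 0.148), and the growth kinase TOR had a log2 fold change of -0.03 ± 0.11 (adjusted p = 0.888).

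By kind of locus, none of 8 plastid or 91 mitochondrial loci was called. Of 149 tested unannotated antisense loci 30 rose and 7 fell (20.13% and 4.70%, against 15.0% and 12.0% of all loci), and of 33 unannotated intergenic loci 5 rose and 1 fell (15.2% and 3.03%). The sources used here do not say whether reads were counted by strand, so an antisense locus and its partner cannot be told apart where they overlap. Unannotated loci together took 0.108% ± 0.0134 of all counts in mock and 0.125% ± 0.00963 after zeocin (SD, n = 5), with an exact two-sided permutation p of 0.0476 that was 0.296 after adjustment over 7 shares. The plastid share was 33.5% ± 2.24 in mock and 35.6% ± 1.1 after zeocin (exact permutation p = 0.127, adjusted 0.296, n = 5 and 5). The smallest p that 5 against 5 libraries allow is 0.0079.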

How the data were processed

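Ribosome-depleted, strand-specific RNA libraries were read from the deposited table of raw counts per assembled locus. The authors trimmed, aligned, assembled and counted the reads, and the tools named are Trim Galore 0.11.8, STAR 2.7.1a, StringTie 2.1.5 and featureCounts of Subread 2.0.1 with the build TAIR10, per the submitters' processing notes. The assembly kept transcripts of at least 200 bases and a coverage of 10, per the file headers. The sources used here do not say how fragments that map to several places were counted, so near-identical genes are uncertain. Total counts were 31185080 to 44536500 per library, and their precision is in the spread between libraries.

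Loci were assigned to annotated genes by exon overlap on the same strand, with at least 50% of the gene or locus. Loci were filtered with filterByExpr, scaled by TMM and tested with edgeR 4.0.16 (R 4.3.3) by the quasi-likelihood test, zeocin against mock without further terms, with Benjamini-Hochberg adjusted p below 0.05 as the call. The fit was tested on simulated data with known changes. Shares of counts were compared by exact permutation over 252 splits (Python 3.11.15, scipy 1.17.1). Alternatives were upper quartile factors, DESeq2 1.42.0's size factors and Wald test, no filter, nuclear loci only, the replicate number as a term and each library left out, and leaving out 3 libraries together was added after seeing the data.

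The comparison, the gene lists and the families were chosen with earlier results of these data known. Named genes are the 15 largest rises and falls among called single-gene loci with at least 1 CPM, the 10 largest gains and losses in CPM, up to 4 called members of each list in each direction with members whose role is described, and the 3 largest changes of a family in each direction. A family of ribosomal proteins was dropped because its name pattern also took in disease resistance genes. Promoters were cut from RefSeq's TAIR10.1 sequence, and 97.6% of the introns of nuclear loci match its annotation exactly. Mitochondrial sequence was not used. Some members of the lists are counted but not reported singly here.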

Additional observations from a re-analysis of the deposited data

Results flagged for a closer look

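For every gene named, the highest or lowest library of each group of 5 was set against the others, by its gap to the nearest library as a share of the group's range, and a share above 0.71 was taken as far from the rest. Of 468 groups examined 29 passed, and chance gives about 1 in 20. In mock library 1 the genes set apart were CRA1 (0.937), AT1G30170 (1), AT1G20750 (0.883) and UGT74D1 (0.805). In mock library 2 the genes set apart were SMR7 (0.734), AT4G25330 (1), AT2G28780 (0.765) and AT3G21340 (0.746). In mock library 3 the genes set apart were KRP5 (0.718), IAA5 (0.743) and AT2G24255 (1). In mock library 4 the genes set apart were SMR1 (0.75) and CYCB1;2 (0.771). In mock library 5 the genes set apart were ARF7 (0.727), FRD3 (0.743), AT1G14550 (0.785) and AT5G40100 (0.777). In zeocin library 1 the genes set apart were WEE1 (0.865), MSH4 (0.767) and AT3G05770 (0.731). In zeocin library 2 the genes set apart were RHD6 (0.784), AT4G25330 (0.769) and UGT72B3 (0.729). In zeocin library 3 the genes set apart were RPS6B (0.744) and CYP96A11 (0.862). In zeocin library 4 it was PRD1 (0.779). In zeocin library 5 the genes set apart were CKX5 (0.823) and SULTR1;2 (0.775). Residual ribosomal RNA was set apart too, at 0.00603% of counts in mock library 4 against a median of 4.79e-05% over the mock group, with a share of 0.911. Genes with a share of 1 had counts in a single mock library. CRA1 stood at 4.42 CPM in mock library 1, one of the 3 libraries apart on the second principal component. WEE1 stood at 12.4 CPM in zeocin library 1 and at 10.7 to 10.9 CPM in the others, above the mock range in each.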

How the results depend on the processing

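The counts of called loci kept within 1.5 times their value under the alternatives run. Rises numbered 2917 and ranged from 2502 with upper quartile factors to 3208 with DESeq2's test, and falls numbered 2328 and ranged from 2275 without the 3 libraries that stood apart to 3066 with upper quartile factors. Upper quartile factors turned the share of rises among calls from 55.6% to 44.9% and moved the median of all loci from -0.02 to -0.07. Leaving out 1 library gave 2409 to 3063 rises and 1793 to 2457 falls. Genes of the lists rose in 63 and fell in 94 cases, or 62 and 92 when a locus had to cover 50% of its gene. Same-numbered libraries deviated from their group means with correlations of 0.43, 0.01, 0.25, -0.10 and 0.00. The highest correlation between differently numbered libraries was 0.21, for mock library 4 and zeocin library 3. Whether the numbers pair libraries is not settled by these values. The replicate block gave 3121 rises and 2554 falls. With it, falls numbered 5 and rises 1 in the unfolded protein response list, falls 2 in the chromatin list and 2 among NAC factors, rises 2 in the auxin list, 1 each in the phosphate, root and seed lists, and 0 in the copper list. With the 250 bases before the start alone, the share of promoters with the SOG1 consensus was 24.1% among the strong risers (31.0% in the full window) and 8.97% over all, and that of the MSA core 21.6% over all (25.9%). Among nuclear counts alone, the share in loci of several genes was 0.249 percentage points higher after zeocin (exact permutation p = 0.0238, not adjusted). In the main comparison, over all counts, this share was 2.82% in mock and 2.89% after zeocin (exact permutation p = 0.111, adjusted 0.296). Leaving out 1 library gave differences of 0.0354 to 0.0910 points for it, with p = 0.0476 without mock library 3, of 1.33 to 2.64 for the plastid share, with p = 0.0476 without mock library 1, and of 0.0141 to 0.0229 for unannotated loci, past 0.05 in 7 of 10 cases (all exact permutation tests). Of the single genes named, 71 calls were lost and 20 gained over all alternatives, and none changed direction. Depth limits the fold of genes with 0 or 1 mock count, which are given as bounds or intervals.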

Other observations

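Members of large enzyme families that the text has not named moved far in both directions. The P450 genes CYP96A5 and CYP706A2 rose, from 0.00, 0.506, 0.271, 0.165 and 0.346 to 1.01, 2.78, 6.68, 2.55 and 3.54 CPM and from 0.172, 0.0948, 0.369, 0.259 and 0.0231 to 1.42, 1.98, 1.59, 2.74 and 1.94 CPM, whereas CYP71A14 fell (log2 -2.09 ± 0.55). Among glycosyltransferases UGT76D1 rose (log2 2.21 ± 0.19) and UGT72B3 and UGT74D1 fell (log2 -1.22 ± 0.20 and log2 -1.14 ± 0.13). The peroxidase PER4 rose (log2 1.42 ± 0.22) and AT5G58390, of the same family, fell (log2 -1.26 ± 0.17). Another cysteine-rich receptor kinase, CRK32, rose (log2 2.72 ± 0.34).

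Calls were spread evenly over the genome, with 13.6% to 15.5% of the tested loci of each nuclear chromosome higher and 11.6% to 12.8% lower. Above 100 CPM falls outnumbered rises, with 185 and 87 of 1158 loci, while between 5 and 20 CPM there were 862 falls and 1071 rises.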
